A study of Mus musculus with 6 samples.

Results

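*Hdc*, *Adh1*, *Aqp9*, *Stc2* and *Smpdl3b* are 5 of the 41195 genes measured by RNA sequencing in γδ thymocytes, immature T cells whose antigen receptor (TCR) is built from a γ and a δ chain. They encode enzymes, a channel and a secreted protein of metabolism, and they were chosen by name because their reads were far higher in libraries labelled *Rag1Cre-Nfatc1fl/fl* than in libraries labelled *Nfatc1fl/fl*. That difference chose them, so it is given below as a description, without a test. All 5 passed the filter on low counts, which they could do through the genotype in which they are high.

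Each genotype had 3 libraries, made to ask whether γδ thymocytes differentiate differently without NFATc1, a transcription factor activated by calcium and calcineurin. *Rag1Cre-Nfatc1fl/fl* mice carried 2 *Nfatc1* alleles with loxP sites around exon 3 together with Cre recombinase made from the *Rag1* locus, which is active in early thymocytes of the αβ and γδ lineages alike. *Nfatc1fl/fl* mice carried the same loxP alleles without Cre, and all mice were 4 to 6 weeks old and on a C57/B6 background. Cells were enriched with magnetic beads for the γδ TCR, and poly(A) RNA was sequenced with a kit that does not keep strand. The labels do not say whether libraries of a genotype came from separate animals, so adjusted p-values measure the spread between these libraries, which may be technical.

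The libraries held 20734771 to 22638531 reads in genes. *Nfatc1* itself had 7987, 9603 and 5872 reads in *Rag1Cre-Nfatc1fl/fl* replicates 1, 2 and 3, against 4581, 4736 and 4612 in *Nfatc1fl/fl* replicates 1, 2 and 3. These are reads of the whole gene, so they do not check the deletion of exon 3, and the genotypes are those of the labels. The 8 markers of γδ T cell identity, among them *Trdc*, *Cd3e* and *Ptprc*, were present in every library, with summed levels of 4189 to 4350 CPM (counts scaled to library size with TMM factors) in *Rag1Cre-Nfatc1fl/fl* libraries and 3938 to 4173 CPM in *Nfatc1fl/fl* libraries. By edgeR, at the thresholds given below, *Zap70* was called higher and *Trdc*, the constant region of the δ chain, lower. Over all tested genes, 6.47% were called higher and 3.51% lower. *Rag1Cre-Nfatc1fl/fl* replicate 3 stood apart: the chi-square per degree of freedom against the other replicates of its genotype was 71.3 and 64.0, where the other pair of that genotype had 7.95. In bulk RNA, a change in the number of cells that make a transcript and a change in the RNA per cell cannot be told apart.

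As background, histidine decarboxylase, the product of *Hdc*, makes histamine from histidine in a single step and is best known from mast cells, basophils and the stomach. *Adh1* encodes a class I alcohol dehydrogenase that oxidises ethanol and retinol, the first step from vitamin A to retinoic acid, and is abundant in liver. *Aqp9* encodes an aquaglyceroporin, a membrane channel that passes water, glycerol and other small uncharged solutes, known from liver, neutrophils and memory CD8 T cells. *Stc2* encodes stanniocalcin 2, a secreted glycoprotein that binds and inhibits pappalysins, the proteases that free insulin-like growth factors from their binding proteins, and *Stc2* is a known target of the stress factor ATF4. *Smpdl3b* encodes a phosphodiesterase held at the cell surface by a lipid anchor, related to acid sphingomyelinase and known for altering membrane lipids in macrophages and podocytes.

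The promoters of the 5 genes are shown because the genes differ together between genotypes of a transcription factor. NFAT proteins bind DNA at a GGAAA core. Each stretch below holds 250 bases before and 50 after a transcription start in RefSeq (build GRCm38.p6), 5′ to 3′ on the strand of the gene, with each GGAAA core, or TTTCC where the core lies on the other strand, in capitals. *Aqp9* has 2 starts in that table and each other gene has 1.
Hdc (chr2:126618629-126618928, minus strand): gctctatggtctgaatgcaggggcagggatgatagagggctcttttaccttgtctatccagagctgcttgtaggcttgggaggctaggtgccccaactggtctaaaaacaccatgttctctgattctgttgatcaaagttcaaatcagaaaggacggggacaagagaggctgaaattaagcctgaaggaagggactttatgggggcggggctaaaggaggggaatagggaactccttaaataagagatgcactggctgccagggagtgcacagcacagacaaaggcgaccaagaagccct
Adh1 (chr3:138277335-138277634, plus strand): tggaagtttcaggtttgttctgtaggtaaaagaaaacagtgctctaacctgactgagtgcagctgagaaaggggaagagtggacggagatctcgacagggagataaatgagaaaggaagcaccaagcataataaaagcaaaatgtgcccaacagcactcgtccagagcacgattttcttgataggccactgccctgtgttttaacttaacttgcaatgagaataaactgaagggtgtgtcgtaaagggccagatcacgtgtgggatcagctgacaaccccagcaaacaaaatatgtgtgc
Aqp9 (start 1) (chr9:71163240-71163539, minus strand): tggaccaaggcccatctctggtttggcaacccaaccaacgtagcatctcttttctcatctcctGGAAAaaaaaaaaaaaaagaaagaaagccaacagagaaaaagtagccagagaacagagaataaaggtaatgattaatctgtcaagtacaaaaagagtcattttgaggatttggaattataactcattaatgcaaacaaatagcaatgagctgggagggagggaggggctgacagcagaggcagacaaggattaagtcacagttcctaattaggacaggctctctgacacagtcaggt
Aqp9 (start 2) (chr9:71162584-71162883, minus strand): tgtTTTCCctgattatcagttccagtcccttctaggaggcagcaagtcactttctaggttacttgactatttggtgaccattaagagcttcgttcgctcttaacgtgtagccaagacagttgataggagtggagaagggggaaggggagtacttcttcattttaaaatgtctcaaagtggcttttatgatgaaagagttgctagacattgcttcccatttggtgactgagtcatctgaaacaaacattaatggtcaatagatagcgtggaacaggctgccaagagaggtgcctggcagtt
Stc2 (chr11:31370012-31370311, minus strand): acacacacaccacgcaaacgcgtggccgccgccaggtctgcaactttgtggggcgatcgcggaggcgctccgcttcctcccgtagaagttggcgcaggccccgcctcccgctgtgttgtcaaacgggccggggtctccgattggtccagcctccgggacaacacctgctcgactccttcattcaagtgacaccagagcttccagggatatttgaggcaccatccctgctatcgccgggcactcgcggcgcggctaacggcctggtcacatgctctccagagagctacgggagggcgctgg
Smpdl3b (chr4:132757122-132757421, minus strand): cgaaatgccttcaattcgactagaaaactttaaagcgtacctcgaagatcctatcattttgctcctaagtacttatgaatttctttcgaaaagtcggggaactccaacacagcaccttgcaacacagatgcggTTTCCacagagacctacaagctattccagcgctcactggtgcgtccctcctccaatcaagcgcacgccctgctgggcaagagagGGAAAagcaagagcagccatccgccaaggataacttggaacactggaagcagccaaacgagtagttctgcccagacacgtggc

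The GGAAA core was found in 3 of these 6 promoters, once in each *Aqp9* promoter and in 2 places in that of *Smpdl3b*, at 117 and 33 bases before the start. It was not found in the windows of *Hdc*, *Adh1* and *Stc2*. By the coordinates given below, the counted genes *Hdc*, *Adh1* and *Aqp9* begin upstream of the windows used. The sequence at those beginnings was not searched. The core is short, and 61.3% of all 32851 promoters of the same length held it on either strand. Among longer or other motifs, an AP-1 site (TGANTCA) lay 24 bases before the second *Aqp9* start, where 7.81% of all promoters hold one. An ATF4-type site (TGATGNAA) lay 64 bases before the same start, against 3.97% of all promoters, and none lay in the *Stc2* window. A GATA site (AGATAA) lay 150 bases before the *Adh1* start, against 11.2% of all promoters, and a GC box (GGGCGG) 48 bases before that of *Hdc*, against 35.7%. The E-box (CANNTG) was in 5 of the 6 and in 72.3% of all promoters, and neither the RUNX site (TGTGGT) nor the TATA box (TATAAA) was in any of them. All motifs were read on both strands, and a match is a run of letters, not evidence of binding. The *Stc2* promoter was the richest in G and C, at 64.7% with 28 CpG, and the first *Aqp9* promoter the poorest, at 41.3% with 1 CpG, against a median of 52.7% over all promoters.

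*Hdc* (ENSMUSG00000027360, chr2:126593667-126619299, minus strand) had the most reads of the 5, without regard to length. It had 1734, 1677 and 1327 reads in *Rag1Cre-Nfatc1fl/fl* replicates 1, 2 and 3, against 35, 43 and 22 in *Nfatc1fl/fl* replicates 1, 2 and 3. Its level was 75.3 ± 4.85 CPM in *Rag1Cre-Nfatc1fl/fl* libraries and 1.46 ± 0.458 CPM in *Nfatc1fl/fl* libraries (SD, n = 3 each). The genotypes were far apart, and no library of either lay between them. The fitted log2 fold change was 5.68 (SE 0.19), the rank 29 from the top among 13185 tested genes.

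*Adh1* (chr3:138260991-138290698, plus strand) had 1042, 1374 and 1260 reads in *Rag1Cre-Nfatc1fl/fl* replicates 1, 2 and 3, against 32, 43 and 29 in *Nfatc1fl/fl* replicates 1, 2 and 3. It reached 59.0 ± 9.85 CPM in *Rag1Cre-Nfatc1fl/fl* libraries and 1.52 ± 0.324 CPM in controls (SD, n = 3 each), a log2 fold change of 5.27 (SE 0.20). Replicate 1 was the lowest *Rag1Cre-Nfatc1fl/fl* library, and the groups did not overlap.

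*Aqp9* (chr9:71110659-71168682, minus strand) had 538, 603 and 470 reads in *Rag1Cre-Nfatc1fl/fl* replicates 1, 2 and 3, against 21, 21 and 16 in *Nfatc1fl/fl* replicates 1, 2 and 3. *Stc2* (chr11:31357307-31370074, minus strand) had 392, 447 and 351 reads in *Rag1Cre-Nfatc1fl/fl* replicates 1, 2 and 3, against 28, 23 and 19 in *Nfatc1fl/fl* replicates 1, 2 and 3. In both genes the libraries of a genotype lay close together and the genotypes did not overlap. *Aqp9* stood at 25.7 ± 1.57 CPM in *Rag1Cre-Nfatc1fl/fl* libraries and 0.847 ± 0.117 CPM in controls (log2 fold change 4.91, SE 0.15). *Stc2* stood at 19.0 ± 1.24 CPM in *Rag1Cre-Nfatc1fl/fl* libraries and 1.02 ± 0.180 CPM in controls, and its log2 fold change of 4.21 (SE 0.17) was the smallest of the 5.

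*Smpdl3b* (chr4:132732966-132757252, minus strand) was the gene nearest to silent in the controls. It had 253, 327 and 301 reads in *Rag1Cre-Nfatc1fl/fl* replicates 1, 2 and 3, against 6, 6 and 5 in *Nfatc1fl/fl* replicates 1, 2 and 3. These are 14.1 ± 2.24 CPM in *Rag1Cre-Nfatc1fl/fl* libraries and 0.248 ± 0.0224 CPM in controls, a log2 fold change of 5.80 (SE 0.23). Because the controls held 17 reads in all, the counting error is wide: the ratio of summed reads, scaled to library size, was 52.8 with an exact 95% interval of 32.8 to 91.1. The same ratio was 48.3 (39.6 to 59.5) for *Hdc*, 36.0 (29.6 to 44.2) for *Adh1*, 28.3 (21.8 to 37.5) for *Aqp9* and 17.3 (13.6 to 22.4) for *Stc2*. These intervals cover counting error only.

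**Figure D1:**
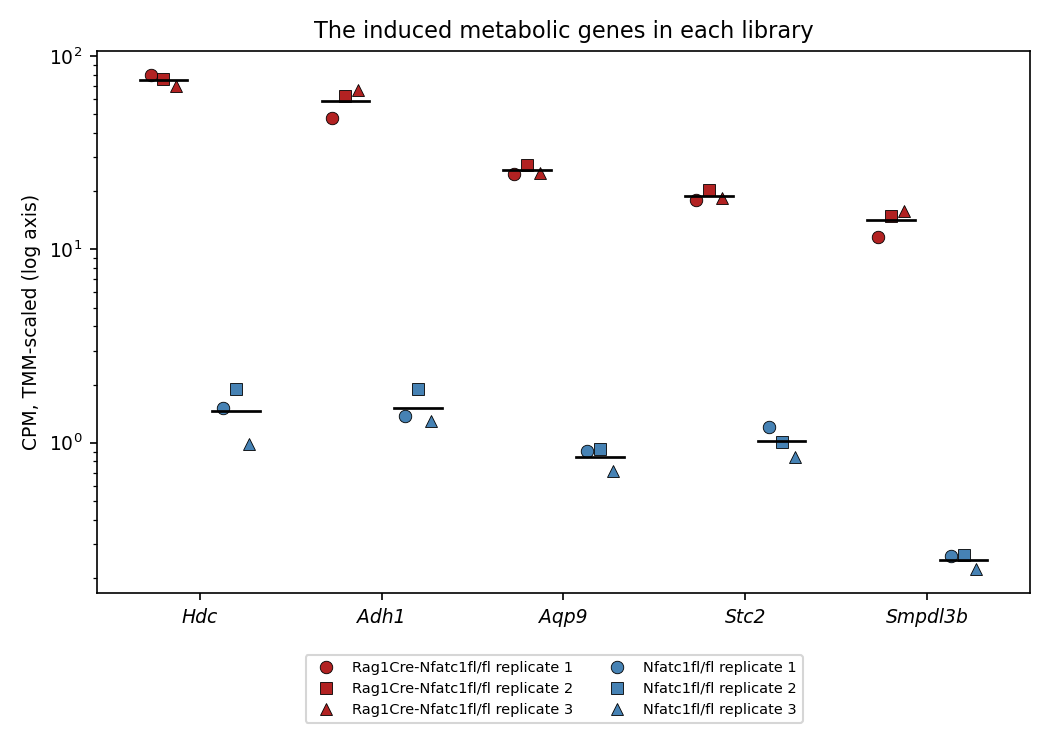
TMM-scaled CPM of *Hdc*, *Adh1*, *Aqp9*, *Stc2* and *Smpdl3b* in each library, on a log axis. Marker shapes stand for replicates and black bars for means of 3 libraries. In each gene the *Rag1Cre-Nfatc1fl/fl* libraries lie above the *Nfatc1fl/fl* libraries without overlap.

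In all 5 genes the 3 *Rag1Cre-Nfatc1fl/fl* libraries lay above the 3 controls, which was so for 23.3% of all tested genes. The study's thresholds were an adjusted p below 0.01 together with a log2 fold change beyond 0.5 in size. With them, 6.47% of tested genes were called higher and 3.51% lower, and 0.637% had a log2 fold change of 4 or more, as these 5 do. The choice of the 5 used this contrast, so nothing is read from their place in it.

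Per length of transcript the order of the genes changed. In TPM (exon reads divided by exon length and scaled to the same sum in each library), *Adh1* was the most abundant in *Rag1Cre-Nfatc1fl/fl* libraries, at 63.0 ± 7.66 TPM, above 85.5% of tested genes. *Hdc* followed at 28.2 ± 4.90 TPM, then *Smpdl3b* at 15.7 ± 1.79 TPM, *Aqp9* at 14.4 ± 2.20 TPM and *Stc2* at 8.22 ± 1.22 TPM. The ranges of *Smpdl3b* and *Aqp9* overlapped and those of the other neighbours in this order did not. In *Nfatc1fl/fl* libraries *Adh1* was again first, at 1.73 ± 0.277 TPM, above 20.8% of tested genes. The other 4 lay between 0.215 ± 0.0426 TPM in *Smpdl3b* and 0.503 ± 0.0707 TPM in *Stc2*, with ranges that overlapped from each gene to the next. These 4 lay above 5.12% to 9.77% of tested genes in controls. In *Rag1Cre-Nfatc1fl/fl* libraries the 5 genes lay above 43.5% to 85.5% of tested genes.

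The level in *Rag1Cre-Nfatc1fl/fl* replicate 3, over the mean of replicates 1 and 2 in CPM, was 1.21 for *Adh1* and 1.20 for *Smpdl3b*, whose exons cover 2233 and 2006 bases. It was 0.952 for *Aqp9*, 0.966 for *Stc2* and 0.898 for *Hdc*, with 4143, 5175 and 6389 bases. In *Adh1* replicate 1 was the lowest, at 47.8 CPM against 62.6 and 66.5 CPM in replicates 2 and 3. In *Smpdl3b* it was also the lowest, at 11.6 CPM against 14.9 and 15.9 CPM. Across the 5 genes the ratio of replicate 3 to the mean of replicates 1 and 2 was above 1 in the 2 shortest and below 1 in the other 3. The part of exon length in it was not tested. Tested genes were also cut into 4 classes of like size by exon length. Their median ratio was 1.21 in the class up to 2522 bases, then 1.06, 0.946 and, in the class from 6429 bases, 0.822. *Aqp9*, which fell in class 2, was below 1 where the median of that class was 1.06.

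In *Hdc*, *Aqp9* and *Smpdl3b* the genotype ratio of intron reads was lower than that of exon reads. Over the 3 libraries of a genotype, *Hdc* had 4671 exon reads in *Rag1Cre-Nfatc1fl/fl* libraries and 68 in controls, a ratio of 70.0 (exact 95% interval 55.1 to 90.3, scaled to library size). It had 67 intron reads in *Rag1Cre-Nfatc1fl/fl* libraries and 32 in controls, a ratio of 2.13 (1.38 to 3.36), and these lay at 28, 21 and 18 in *Rag1Cre-Nfatc1fl/fl* replicates 1, 2 and 3, against 12, 9 and 11 in *Nfatc1fl/fl* replicates 1, 2 and 3. Introns thus gave 1.41% of the *Hdc* reads in *Rag1Cre-Nfatc1fl/fl* libraries (exact 95% interval 1.10 to 1.79) and 32.0% in controls (23.0 to 42.1), where introns gave 2.07% of the reads of all genes in *Rag1Cre-Nfatc1fl/fl* libraries and 2.42% in controls. Reads that crossed an exon-exon junction of *Hdc* numbered 2438 in *Rag1Cre-Nfatc1fl/fl* libraries and 20 in controls, and *Nfatc1fl/fl* replicate 3 had none among its 11 exon reads.

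*Smpdl3b* had 59 intron reads in *Rag1Cre-Nfatc1fl/fl* libraries and 6 in controls, a ratio of 10.0 (4.34 to 28.4), against a ratio of 76.2 (42.3 to 153) for its exon reads. *Aqp9* had 56 intron reads in *Rag1Cre-Nfatc1fl/fl* libraries and 8 in controls, a ratio of 7.14 (3.38 to 17.3), against 31.7 (23.9 to 42.9) in exons. In these 2 genes, as in *Hdc*, the intervals of the exon and intron ratios did not overlap. The intervals come from summed reads and cover counting error only, so the difference between libraries was not tested. *Stc2* was the exception, with 84 intron reads in *Rag1Cre-Nfatc1fl/fl* libraries and 3 in controls, a ratio of 28.5 (9.44 to 141) that overlapped that of its exons, 16.8 (13.1 to 21.9). *Adh1* had too few intron reads to compare, 4 in *Rag1Cre-Nfatc1fl/fl* libraries and 5 in controls. Spliced reads were present in all 5 genes in *Rag1Cre-Nfatc1fl/fl* libraries, from 34.7% of exon reads in *Aqp9* to 87.3% in *Adh1*. Over all genes the share in these libraries was 56.2%.

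**Figure D2:**
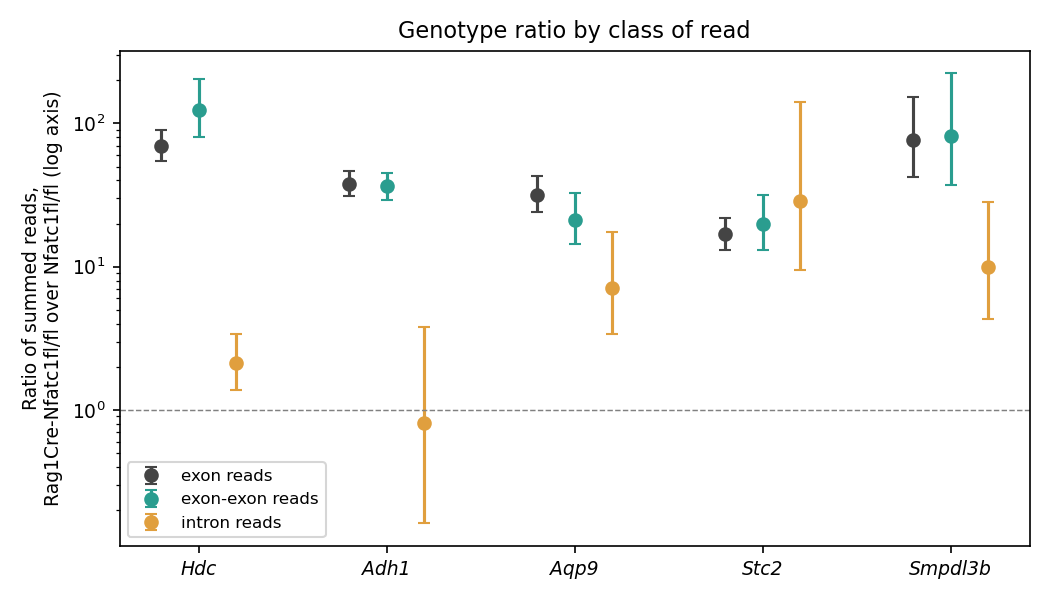
Ratio of summed reads, *Rag1Cre-Nfatc1fl/fl* over *Nfatc1fl/fl*, scaled to library size, for exon, exon-exon and intron reads of each gene, on a log axis. Points are ratios over 3 libraries a genotype and bars exact 95% counting intervals. The intron ratio of *Hdc*, 2.13, lies far below its exon ratio, 70.0, while the intervals of *Stc2* overlap.

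Few of the reads could belong to other genes. In each gene and genotype, 96.2% or more of the reads were unique to the gene. 2 predicted antisense genes overlap members, *Gm16559* at *Adh1* and *Gm32511* at *Aqp9*, and neither had a read in any library, although reads of overlapping genes cannot be split without strand.

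None of the genes beside the 5 passed the test. Of the 20 nearest tested neighbours, 2 on each side, none was called by edgeR's quasi-likelihood test, where 9.98% of tested genes were called in either direction, and their median log2 fold change was 0.066. At an unadjusted p under 0.05, 2 were higher and 2 lower, and DESeq2 called 1 higher. *Xkr8*, a phospholipid scramblase gene that starts 420 bases beyond the end of *Smpdl3b* on the same strand, came closest. It had 12.9, 13.4 and 17.4 CPM in *Rag1Cre-Nfatc1fl/fl* replicates 1, 2 and 3, against 8.13, 8.62 and 9.35 CPM in *Nfatc1fl/fl* replicates 1, 2 and 3, without overlap (log2 fold change 0.74, edgeR adjusted p = 0.0107, 0.000579 to 0.0524 over the alternatives). *Slc27a2*, a fatty acid transporter gene 5424 bases from *Hdc*, held 63 reads in *Rag1Cre-Nfatc1fl/fl* libraries and 61 in controls.

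Of the closest relatives of the 5 genes, *Ddc*, *Adh5*, *Aqp3*, *Stc1* and *Smpdl3a* were tested, and 1 was called, higher. Of all tested genes, 6.47% were called higher and 3.51% lower. *Ddc*, the decarboxylase of aromatic amino acids and the nearest relative of *Hdc*, stood at 2.75, 2.41 and 2.27 CPM in *Rag1Cre-Nfatc1fl/fl* libraries, against 3.66, 3.12 and 4.27 CPM in controls (log2 fold change -0.57, edgeR adjusted p = 0.084). *Adh5*, the widely expressed class III alcohol dehydrogenase that handles formaldehyde adducts, stood at 65.0 ± 3.41 TPM in *Rag1Cre-Nfatc1fl/fl* libraries and 60.6 ± 5.76 TPM in controls (SD, n = 3 each; log2 fold change 0.26, edgeR adjusted p = 0.108). The level of *Adh1* per length was thus 0.968 of that of *Adh5* in *Rag1Cre-Nfatc1fl/fl* libraries and 0.0286 of it in controls. *Adh7*, a retinol-oxidising class IV enzyme, had 15, 2 and 3 reads in *Rag1Cre-Nfatc1fl/fl* replicates 1, 2 and 3 and none in controls. From exon reads its level in those replicates was only 0.0946, 0.0305 and 0.0291 TPM. *Adh4* had 2 reads in *Rag1Cre-Nfatc1fl/fl* libraries and none in controls. Neither passed the filter.

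*Aqp3*, another aquaglyceroporin, was at 19.2 ± 5.10 TPM in *Rag1Cre-Nfatc1fl/fl* libraries and 16.9 ± 2.81 TPM in controls (log2 fold change 0.32, edgeR adjusted p = 0.218), and *Aqp7* had 2 reads in *Rag1Cre-Nfatc1fl/fl* libraries and 1 in controls. *Stc1*, the other stanniocalcin, ran in the opposite direction to *Stc2* without passing the test, at 1.29, 0.774 and 0.528 CPM in *Rag1Cre-Nfatc1fl/fl* libraries, against 2.45, 1.80 and 1.65 CPM in controls (log2 fold change -1.18, edgeR adjusted p = 0.0526). *Smpdl3a* was the exception. This secreted phosphodiesterase of the same family as *Smpdl3b* rose to 336, 405 and 442 CPM in *Rag1Cre-Nfatc1fl/fl* replicates 1, 2 and 3, against 86.0, 101 and 91.4 CPM in *Nfatc1fl/fl* replicates 1, 2 and 3. Its log2 fold change was 2.09 (SE 0.12, edgeR adjusted p = 5.1e-05), and per length it stayed well above *Smpdl3b*, at 456 ± 37.6 TPM in *Rag1Cre-Nfatc1fl/fl* libraries and 120 ± 13.3 TPM in controls.

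**Figure D3:**
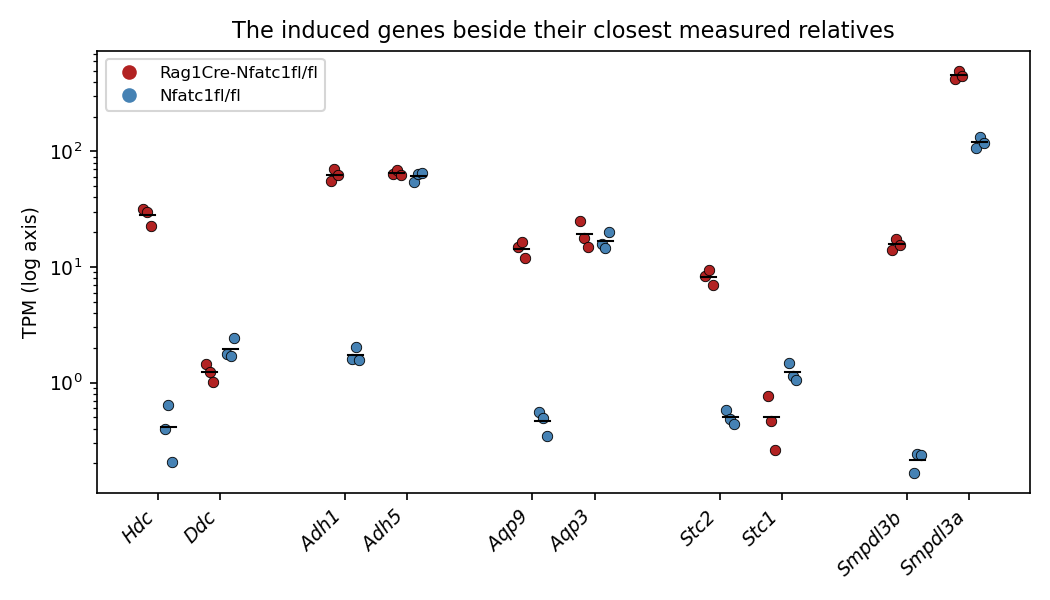
TPM of each of the 5 genes and of 1 relative, on a log axis, with points for libraries, in replicate order from left to right, and black bars for means of 3. *Adh1* meets the level of *Adh5* in *Rag1Cre-Nfatc1fl/fl* libraries, 63.0 and 65.0 TPM, and *Smpdl3a* is the relative that rose along with its member.

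Around *Hdc*, the list held genes that receive, carry or break down histamine. Of 20 listed genes for histamine receptors, transport, breakdown and histidine handling, 8 were tested, none was called higher and 2 were called lower by edgeR, with a median log2 fold change of -0.15. Of all tested genes, 6.47% were called higher and 3.51% lower, so that 0 of 8 higher is near the share of all genes. DESeq2 gave the same counts, and 1 gene was higher at an unadjusted p under 0.05. *Slc22a3*, an organic cation transporter that takes up histamine, fell to 28.8, 27.1 and 20.6 CPM in *Rag1Cre-Nfatc1fl/fl* libraries, against 55.5, 42.3 and 53.3 CPM in controls (log2 fold change -0.98, edgeR adjusted p = 0.0038). *Maoa*, a monoamine oxidase gene, fell to 4.31 ± 0.638 CPM in *Rag1Cre-Nfatc1fl/fl* libraries, against 7.81 ± 0.556 CPM in controls (log2 fold change -0.86, edgeR adjusted p = 0.0088). The other listed monoamine oxidase gene, *Maob*, had no read. The receptor gene *Hrh2* was at 11.2 CPM in *Rag1Cre-Nfatc1fl/fl* libraries and 9.91 CPM in controls (edgeR adjusted p = 0.449), *Hrh1* and *Hrh4* had no more than 16 reads in a genotype, and *Hnmt*, which methylates histamine, had none. The number of calls changed with the libraries: there was none without *Rag1Cre-Nfatc1fl/fl* replicate 2 or without *Nfatc1fl/fl* replicate 1 or 3, and 1 without *Rag1Cre-Nfatc1fl/fl* replicate 1 or *Nfatc1fl/fl* replicate 2.

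Of 18 tested genes for other amino acid decarboxylases, polyamines and vitamin B6, the cofactor of HDC, 3 were called higher and none lower by edgeR, where 6.47% and 3.51% of all tested genes were (median log2 fold change 0.08). DESeq2 called 4 higher and none lower, and 4 were higher and 3 lower at an unadjusted p under 0.05. *Smox*, which oxidises spermine, stood at 62.9 ± 2.49 CPM in *Rag1Cre-Nfatc1fl/fl* libraries and 38.4 ± 1.47 CPM in controls (log2 fold change 0.71, edgeR adjusted p = 0.00092). *Srm*, spermidine synthase, rose by 0.60 on the log2 scale (edgeR adjusted p = 0.0035). *Odc1*, the entry enzyme of polyamine synthesis, was at 133 CPM in *Rag1Cre-Nfatc1fl/fl* libraries and 135 CPM in controls. The 3 calls became 1 without *Rag1Cre-Nfatc1fl/fl* replicate 2 or *Nfatc1fl/fl* replicate 2 or 3, and none without *Nfatc1fl/fl* replicate 1.

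Around *Adh1*, many of the listed retinoid genes were at or near 0, while several retinol and retinal enzyme genes were expressed in both genotypes. Of 43 listed retinol and retinal enzymes, binding proteins and receptors, 12 had no read in any library and 15 were tested, of which 2 were called higher and none lower by edgeR and by DESeq2 alike (median log2 fold change 0.20). These are 13.3% higher, against 6.47% of all tested genes, and 0 lower, against 3.51%. At an unadjusted p under 0.05, 7 were higher and none lower. *Rxra*, the partner receptor of the retinoic acid receptors, rose to 107, 114 and 99.8 CPM in *Rag1Cre-Nfatc1fl/fl* libraries, against 46.7, 53.1 and 44.5 CPM in controls (log2 fold change 1.15, edgeR adjusted p = 0.00028). *Dhrs3*, a retinal reductase that runs against *Adh1* by returning retinal to retinol, rose to 18.7 ± 0.480 CPM in *Rag1Cre-Nfatc1fl/fl* libraries, against 8.90 ± 0.800 CPM in controls (log2 fold change 1.07, edgeR adjusted p = 0.00062). Both calls held under each of the 12 alternatives run on counts. *Rdh11* was at 38.7 CPM in *Rag1Cre-Nfatc1fl/fl* libraries and 38.9 CPM in controls. In the same order, *Dhrs4* was at 28.4 and 23.8 CPM and *Rdh14* at 23.7 and 18.8 CPM. None of them was called by edgeR. The retinal dehydrogenase genes *Aldh1a1* and *Aldh1a2*, which make retinoic acid, had no read, and *Aldh1a3* had 5 in *Rag1Cre-Nfatc1fl/fl* libraries and 2 in controls.

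Of 16 genes known to be induced by retinoic acid, 6 were tested, with 1 call in each direction (6.47% of all tested genes were called higher and 3.51% lower). *Dhrs3*, also in the list above, was called higher, and *Ccr9*, a chemokine receptor of gut and thymus homing, was called lower, with 559 ± 58.3 CPM in *Rag1Cre-Nfatc1fl/fl* libraries and 1137 ± 37.4 CPM in controls (log2 fold change -1.02, edgeR adjusted p = 0.00052). *Itga4* and *Itgb7*, which encode the α and β chains of a gut-homing integrin, were not called, at log2 fold changes of -0.96 (edgeR adjusted p = 0.0158, 9.4e-05 to 0.0642 over the alternatives) and 0.03. *Rarb* had 16 reads in *Rag1Cre-Nfatc1fl/fl* libraries and 8 in controls, and *Cyp26a1*, which breaks down retinoic acid, had none.

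Around *Aqp9*, 2 of 17 tested genes for other aquaporins, glycerol and triglycerides were called higher and none lower by edgeR (median log2 fold change 0.04), that is 11.8% higher, near the 6.47% of all tested genes, and 0 lower, near their 3.51%. DESeq2 called 3 higher and none lower, and 5 were higher and 2 lower at an unadjusted p under 0.05. *Gpat3*, which adds the first fatty acid to glycerol 3-phosphate, rose to 9.23, 11.4 and 10.0 CPM in *Rag1Cre-Nfatc1fl/fl* libraries, against 0.689, 1.28 and 1.11 CPM in controls (log2 fold change 3.31, edgeR adjusted p = 0.00011). *Mgll*, monoglyceride lipase, which frees glycerol, rose to 9.91 ± 0.197 CPM in *Rag1Cre-Nfatc1fl/fl* libraries, against 3.31 ± 0.346 CPM in controls (log2 fold change 1.58, edgeR adjusted p = 0.00037). *Gk*, glycerol kinase, which holds imported glycerol in the cell, was not called, at 7.37 CPM in *Rag1Cre-Nfatc1fl/fl* libraries and 9.50 CPM in controls (edgeR adjusted p = 0.075). Without *Rag1Cre-Nfatc1fl/fl* replicate 3 the calls numbered 4, with 2 higher and 2 lower.

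Around *Stc2*, 25 genes of the integrated stress response and the unfolded protein response were tested. Of these, 9 were called higher (36.0%, against 6.47% of all tested genes) and 1 lower (where 3.51% of all tested genes were), and the median log2 fold change was 0.44. *Asns*, asparagine synthetase, stood at 5.14, 6.10 and 7.50 CPM in *Rag1Cre-Nfatc1fl/fl* libraries, against 1.46, 1.41 and 1.20 CPM in controls (log2 fold change 2.20, edgeR adjusted p = 0.00051). *Pck2*, the mitochondrial PEP carboxykinase, rose by 1.07, and *Slc3a2* and *Slc7a5*, the chains of a transporter of large neutral amino acids, by 0.92 and 0.81 on the log2 scale (edgeR adjusted p = 0.00036, 0.00053 and 0.0014). *Psat1* and *Phgdh* of serine synthesis, *Sesn2*, *Cebpb* and *Eif4ebp1* were also called higher, and *Eif2ak3*, the kinase PERK of the unfolded protein response, lower. Unlike the factor gene *Cebpb*, the factor genes *Atf4* and *Ddit3* were not called. *Atf4* was at 59.8 CPM in *Rag1Cre-Nfatc1fl/fl* libraries and 55.8 CPM in controls. *Ddit3* was at 14.9 CPM in *Rag1Cre-Nfatc1fl/fl* libraries and 13.1 CPM in controls. The chaperone gene *Hspa5*, at 671 CPM in *Rag1Cre-Nfatc1fl/fl* libraries and 628 CPM in controls, was not called either. These are RNA levels, and the proteins were not measured. The 10 calls became 4 without *Rag1Cre-Nfatc1fl/fl* replicate 2 and 3 without any 1 of the controls, while *Asns*, *Pck2* and *Slc3a2* were called under each alternative.

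Of 7 tested genes on the IGF side of stanniocalcin, 1 was called higher and 2 lower, where 6.47% and 3.51% of all tested genes were (median log2 fold change -0.46). *Igfbp4*, the binding protein that the pappalysin PAPP-A cuts, fell to 429, 375 and 458 CPM in *Rag1Cre-Nfatc1fl/fl* libraries, against 915, 930 and 1000 CPM in controls (log2 fold change -1.17, edgeR adjusted p = 0.00028). *Igf1r*, the receptor, fell by 0.94 on the log2 scale (edgeR adjusted p = 0.0046), and *Igfbp6* was higher at a level near 1 CPM, with a log2 fold change of 2.88 (edgeR adjusted p = 0.0067). *Pappa* had no read in *Rag1Cre-Nfatc1fl/fl* libraries and 3 in controls. Only *Igfbp4* was called without *Rag1Cre-Nfatc1fl/fl* replicate 2 or without any 1 of the controls.

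Around *Smpdl3b*, 6 of 33 tested genes of sphingomyelin, ceramide and sphingosine were called higher and 1 lower (median log2 fold change 0.13). These are 18.2% higher, against 6.47% of all tested genes, and 3.03% lower, against 3.51%. Besides *Smpdl3a*, *Sgms2*, a sphingomyelin synthase, rose to 3.44, 3.23 and 3.06 CPM in *Rag1Cre-Nfatc1fl/fl* libraries, against 0.129, 0.132 and 0.134 CPM in controls, where each library held 3 reads (log2 fold change 4.57, edgeR adjusted p = 6.6e-05). The ceramide synthase genes did not move as 1 group. *Cers4* rose to 76.3 ± 4.22 CPM in *Rag1Cre-Nfatc1fl/fl* libraries, against 21.4 ± 3.42 CPM in controls (log2 fold change 1.83, edgeR adjusted p = 9.3e-05), *Cers5* rose by 0.75 (edgeR adjusted p = 0.00081), and *Cers6* fell by 0.95 on the log2 scale (edgeR adjusted p = 0.0059). *Ugcg*, which makes glucosylceramide, was called higher, at a log2 fold change of 1.38. The 7 calls became 4 without *Rag1Cre-Nfatc1fl/fl* replicate 2 or without any 1 of the controls, and *Smpdl3a*, *Sgms2*, *Cers4* and *Cers5* were called under each alternative.

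**Figure D4:**
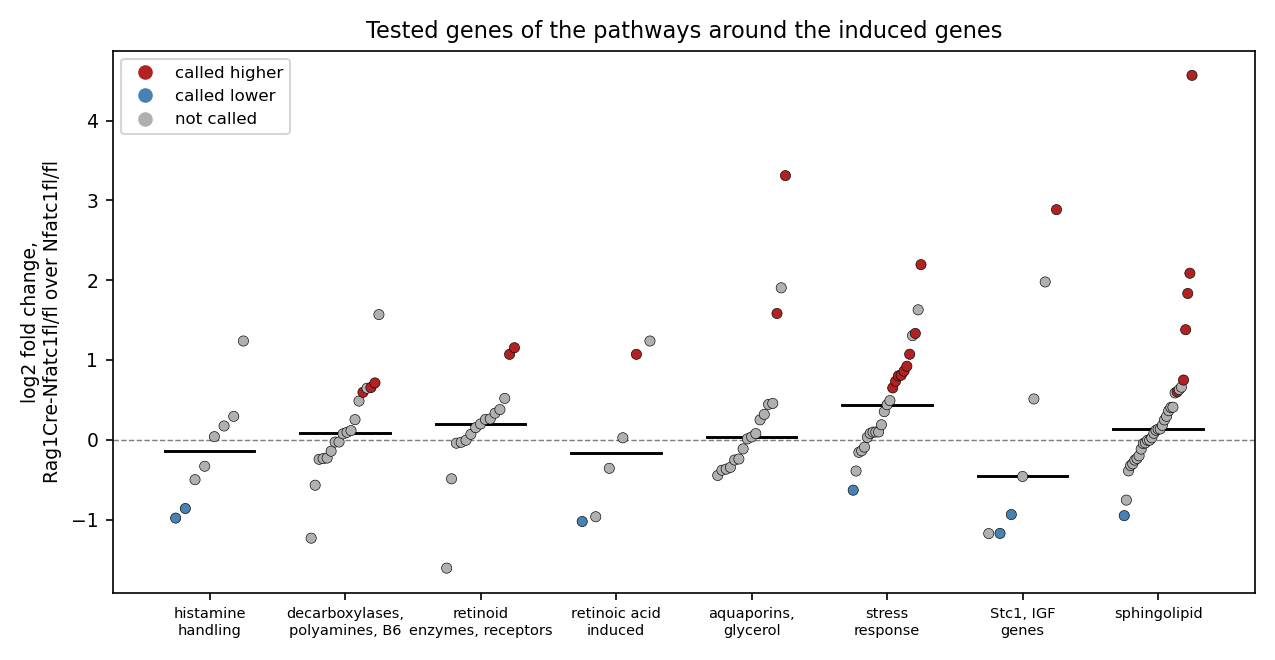
Log2 fold changes, *Rag1Cre-Nfatc1fl/fl* over *Nfatc1fl/fl*, of the tested genes of the 8 pathway lists, without the 5 genes themselves. Points are genes, coloured by the call, and black bars are list medians. The stress response list has 9 genes called higher of 25, and the histamine list none of 8.

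*Hdc*, *Aqp9* and *Smpdl3b* are also known from myeloid cells, so markers of other cells were read in the same libraries. Of 13 mast cell and basophil markers, 5 had no read in any library (*Fcer1a*, *Tpsb2*, *Tpsab1*, *Mcpt4* and *Mrgprb2*) and 10 were below 1 CPM in each library. *Cpa3* and *Kit*, which early thymocytes also express, made up most of the summed level, which ran from 129 to 164 CPM in *Rag1Cre-Nfatc1fl/fl* libraries and from 230.0 to 243 CPM in controls. The 12 neutrophil markers summed to 1.42 to 3.91 CPM in *Rag1Cre-Nfatc1fl/fl* libraries and 0.560 to 1.72 CPM in controls, with *Elane* at 0 throughout, and none passed the filter.

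The 12 macrophage and monocyte markers summed to 86.6, 55.5 and 296 CPM in *Rag1Cre-Nfatc1fl/fl* replicates 1, 2 and 3, against 97.0, 31.0 and 22.0 CPM in *Nfatc1fl/fl* replicates 1, 2 and 3. The genotypes overlapped, and of 10 tested markers none was called by edgeR or DESeq2, with 2 higher at an unadjusted p under 0.05 and a median log2 fold change of 1.60. The sum was several times higher in *Rag1Cre-Nfatc1fl/fl* replicate 3 than in replicates 1 and 2. The 5 genes in replicate 3 were at 0.898 to 1.21 of the mean of the other replicates. Dendritic cell markers summed to 94.6 to 126 CPM in *Rag1Cre-Nfatc1fl/fl* libraries and 117 to 121 CPM in controls. B cell markers, of which only *Ighm* and *Cd79b* reached 1 CPM, summed to 111 to 129 CPM in *Rag1Cre-Nfatc1fl/fl* libraries and 221 to 229 CPM in controls, and edgeR called both lower. Erythroid markers summed to 7.92 to 52.9 CPM in *Rag1Cre-Nfatc1fl/fl* libraries and 4.05 to 29.1 CPM in controls, thymic epithelial markers to 12.9 to 18.0 CPM in *Rag1Cre-Nfatc1fl/fl* libraries and 22.1 to 25.5 CPM in controls, and fibroblast and endothelial markers to 102 to 156 CPM in *Rag1Cre-Nfatc1fl/fl* libraries and 195 to 226 CPM in controls. Of 3 tested markers each, edgeR called *Cpa3* of the mast cell list, *Epcam* of the epithelial list and *Pdgfrb* of the fibroblast and endothelial list lower. Over all tested genes, 6.47% were called higher and 3.51% lower. The part of these cells in the levels of the 5 genes was not tested.

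By Pearson's r of log2(CPM + 1) over the 6 libraries, against 11900 tested genes, the genes most like *Hdc* were *Ptpn5* (0.9996), *Mpp2* (0.9992) and *D5Ertd615e* (0.9989). *Ptpn5*, a phosphatase gene best known from neurons, had 936, 950 and 722 reads in *Rag1Cre-Nfatc1fl/fl* replicates 1, 2 and 3, against 33, 42 and 28 in *Nfatc1fl/fl* replicates 1, 2 and 3. *Id2*, an inhibitor of E proteins, was closest to *Adh1* (0.9998), followed by *Capg* and *Faah* (both 0.9995). *Aqp9* and *Stc2* were each other's closest gene (0.9996), followed for *Aqp9* by *Trim36* and *Ptpn5*, and for *Stc2* by *Pcolce2* and *Samd3*. *Vstm5*, with 31 reads in *Rag1Cre-Nfatc1fl/fl* libraries and none in controls, was closest to *Smpdl3b* (0.9999), before *Ryk* and *Ass1*. Among the 5 genes themselves r lay between 0.994 and 0.9996. All these values come from 6 libraries in 2 genotypes that share the difference by which the 5 genes were chosen, and they describe little beyond it.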

How the data were processed

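RNA sequencing (RNA-seq) tables of 6 libraries were used, 3 per genotype as labelled. Per the methods of the study, reads were aligned to GRCm38 with STAR and counted with featureCounts. The deposited tables hold whole-number counts per gene (total, unique, exon, exon-exon and intron reads), but which program made this layout was not given in the sources used here. Deposited TPM is written with decimal commas and was recomputed from exon reads and exon length, equal within 1e-06. The test on total gene counts was that of edgeR 4.0.16 under R 4.3.3 (filterByExpr, TMM, quasi-likelihood test, genotype only), with Benjamini-Hochberg adjustment over 13185 genes, and called where the adjusted p was below 0.01 and the log2 fold change beyond 0.5 in size. The edgeR step was tested on simulated data. The median log2 fold change of tested genes was -0.0069.

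The 5 genes and the 8 pathway and 9 marker lists were chosen with earlier results of these data known. Named were the 5 genes, the called genes of each pathway list, at most 4 by smallest adjusted p (where under 2 were called, the 2 tested genes highest in mean CPM as well), the closest paralogues, the 2 nearest tested neighbours on each side, the 3 genes of highest r (without predicted genes and without TCR or immunoglobulin segments) and the markers with the highest mean CPM or at 0. Of the neighbours, those not printed are summarised, and the other list genes named were picked after their values were seen. Some list genes that the rule names are not reported here. Alternatives were RLE factors, no filter, DESeq2 1.42.0, unique or exon reads, a replicate block, each library left out, and limma 3.58.1 on log2(TPM + 1) or log2(TPM + 0.1) for the 5 genes. Promoters came from RefSeq, where all 5 genes matched. Figures were drawn with matplotlib 3.10.9.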

Additional observations from a re-analysis of the deposited data

How the results depend on the processing

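The 5 genes kept a positive log2 fold change in all 70 alternative values, between 2.61 and 6.30. Of these, 10 moved by more than the spread between replicates. With limma on log2(TPM + 1) the values of low genes are drawn towards 0 by the pseudocount, and with exon reads alone *Hdc*, *Smpdl3b* and *Aqp9* came to 6.21, 6.30 and 5.07. With each library left out the values ran from 5.47 to 5.92 for *Hdc*, 5.17 to 5.46 for *Adh1*, 4.81 to 4.98 for *Aqp9*, 4.09 to 4.34 for *Stc2* and 5.72 to 5.92 for *Smpdl3b*.

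Calls over all genes, 1316 by edgeR, numbered 1992 with DESeq2 (1251 higher and 741 lower) and 488 to 1796 with a library left out, falling to 629 without *Rag1Cre-Nfatc1fl/fl* replicate 2 and to 488, 541 and 488 without *Nfatc1fl/fl* replicates 1, 2 and 3. With a library left out, the calls per list ran from 0 to 3 for histamine handling (2 with all libraries), 0 to 4 for decarboxylases and polyamines (3), 2 to 4 for aquaporins and glycerol (2), 3 to 11 for the stress response (10), 1 to 3 for stanniocalcin and IGF (3), 4 to 7 for sphingolipids (7) and 2 to 3 for genes induced by retinoic acid (2), and stayed at 2 for the retinoid list. No direction reversed.

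Whether replicate numbers pair the samples cannot be told from 3 libraries a genotype. Same-numbered libraries had correlations of their deviations from the group means of 0.026, 0.18 and 0.0055. Libraries with unlike numbers ran from -0.15 to 0.094. With the replicate number as a block, the histamine list had 1 call instead of 2, and the total of no other list moved by over 1.5 times. *Maoa*, *Eif2ak3*, *Cers6*, *Igfbp6* and *Sesn2* lost their call under the block, so that the calls lower in the stress and sphingolipid lists and higher in the IGF list came to 0. The controls held 17 reads of *Smpdl3b* and 58 of *Aqp9*, which limits the precision of their ratios.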
